A study of Mus musculus with 12 samples.

Results

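The Ly6 surface antigen genes of cultured mouse myeloid progenitors were followed in 12 RNA-seq libraries. The group comprised Ly6c1, Ly6c2, Ly6g, Ly6a, Ly6e and Ly6d, and its members were selected on their FPKM in these same libraries, so their levels and differences are given as descriptions. Of these 6 genes, 5 had values among the 23309 genes listed, and Ly6g was not analysed here. The cells were CD117+ bone marrow progenitors immortalized with a retroviral fusion of the estrogen receptor to HoxB8, which holds them immature while estradiol (E2) is present, and all groups carried this fusion and grew in IL-3. Wild-type (WT) cultures came from littermates of HMGN1-OE mice, which carry human HMGN1, a nucleosome-binding chromatin protein, as a transgene on a B6 background. RNA was taken before E2 withdrawal (0 h) and at 36 h and 96 h after it, from WT and HMGN1-OE (OE) cultures, with 2 libraries in each of the 6 groups. The age of the mice was not given in the sources used here.

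Ly6 proteins are small, cysteine-rich molecules that sit on the outer face of the cell membrane through a glycosylphosphatidylinositol (GPI) anchor. They are best known in blood as antibody targets: Ly6C, made from Ly6c1 and Ly6c2, marks monocytes and myeloid progenitors, and Ly6G, made from Ly6g, marks neutrophils. The GR-1 antibody used to follow myeloid maturation binds Ly6G and can also bind Ly6C. Ly6a encodes Sca-1, a marker of mouse hematopoietic stem cells, Ly6e is expressed in many cell types and responds to interferon, and Ly6d is used to follow early B-lineage cells.

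Values are FPKM (fragments per kilobase of transcript, scaled to library size) that the authors had scaled to spiked-in ERCC RNAs, so a level can be compared between genes. Summed FPKM per library ranged from 228955 to 1442573, read depth is unknown, and the lowest sums were those of the 96 h libraries. Libraries of a group are called first and second by their order in the table, which pairs nothing between groups. Endogenous Hmgn1 was 85.7 and 141 FPKM in WT and 201 and 97.6 FPKM in OE libraries at 0 h, which did not separate the genotypes, and the human transgene itself was not analysed here. In Flt3, a receptor of early progenitors, the second WT library at 36 h lay with the 0 h libraries. Flt3 was at 67.0 FPKM there, within the 47.5 to 82.2 FPKM of the 0 h libraries. It was at 4.10 FPKM in the first WT library and 7.53 and 9.31 FPKM in OE at 36 h. For 3 of 10 stem and progenitor genes tested, Kit, Gata2 and Myb, both WT libraries at 36 h lay above both at 0 h. This held for 25.7% of all genes, and 0 of the 10 lay below. Because of Flt3, member differences between genotypes at 36 h are also given without the second WT library. Of 16 neutrophil genes listed, all passed the low-value filter (at least 1 FPKM in at least 2 libraries). S100a8 and S100a9, which encode calprotectin, led the list, a lead taken here and below by mean FPKM over the 12 libraries. S100a8 was at 131 to 1411 FPKM at 0 h and 36 h and at 29366 to 83718 FPKM at 96 h. At 0 h and 36 h other genes made up most of the neutrophil sum given below. S100a9 was listed at 0.0511 FPKM in the first WT library at 96 h, where S100a8 was at 69948 FPKM.

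Ly6c1 and Ly6c2 are near-identical neighbours on chromosome 15, and their beginnings are shown because the small number of differing bases limits how far reads can be assigned to one or the other. The lines give coding bases 1 to 120 of each gene, 5′ to 3′, from the spliced transcripts of GENCODE vM21, and capitals mark the 6 bases that differ.
Ly6c1: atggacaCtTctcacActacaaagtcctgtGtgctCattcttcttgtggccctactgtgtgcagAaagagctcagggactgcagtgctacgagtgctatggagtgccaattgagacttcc
Ly6c2: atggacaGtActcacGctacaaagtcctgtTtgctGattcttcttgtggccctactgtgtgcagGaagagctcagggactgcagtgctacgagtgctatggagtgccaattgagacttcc
Over the whole coding sequence of 396 bases, the 2 genes were identical at 387 bases (97.7%). Ly6c1 was 83.8% identical to Ly6a, 81.6% to Ly6g and 59.9% to Ly6e. Of the stretches of 50 bases in Ly6c2 transcripts, 30.8% also occurred in Ly6c1, and 0.367% occurred in Ly6a. Of those in Ly6c1 transcripts, 14.3% occurred in Ly6c2 and 11.1% in Ly6a. How the authors' pipeline divided such shared reads is not given in the sources used here, so the separate levels of Ly6c1 and Ly6c2, and the low values of Ly6a, are uncertain.

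The starts of both Ly6c genes are shown because the 2 genes moved together in these libraries. The windows, from RefSeq on GRCm38.p6, run from 250 bases before to 50 after the more upstream listed start, at chr15:75048788-75049087 (minus strand) for Ly6c1 and chr15:75111922-75112221 (minus strand) for Ly6c2, and are written 5′ to 3′ of the gene. Capitals mark GAGGAAGT, letters of the kind bound by the myeloid factor PU.1, searched on both strands.
Ly6c1: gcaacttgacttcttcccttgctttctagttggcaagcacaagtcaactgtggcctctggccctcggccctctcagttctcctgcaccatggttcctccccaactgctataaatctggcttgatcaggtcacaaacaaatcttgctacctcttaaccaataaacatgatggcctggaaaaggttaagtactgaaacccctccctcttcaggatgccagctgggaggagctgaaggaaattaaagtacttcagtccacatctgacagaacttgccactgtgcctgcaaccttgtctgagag
Ly6c2: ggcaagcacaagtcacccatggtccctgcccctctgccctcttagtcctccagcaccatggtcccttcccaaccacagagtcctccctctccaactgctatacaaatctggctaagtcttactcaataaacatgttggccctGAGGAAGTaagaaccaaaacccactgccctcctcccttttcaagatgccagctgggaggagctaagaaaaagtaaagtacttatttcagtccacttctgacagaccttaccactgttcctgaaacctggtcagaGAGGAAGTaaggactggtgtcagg
The windows of Ly6c1 and Ly6c2 were identical at 208 of 266 aligned bases (78.2%). In Ly6c2 the motif began at -108 and at 27 from the start. The Ly6c1 window held none, and the window of its other listed start, chr15:75048614-75048913, held 1 match. Of 32851 such windows over all genes, 3.2% held GAGGAAGT. No match was found in the printed windows to the interferon-stimulated response element, held by 3.44% of all windows, or to TTCNNNGAA, letters of the kind bound by STAT factors, held by 8.3%. TTGCNNCAA, letters of the kind bound by C/EBP factors, was held by 2.08% of all windows and was also not found. These are matches of letters only. Windows were used for Ly6c1, Ly6c2 and Ly6g among the members. The Ly6g window, not printed, held GAGGAAGT at -31 and TTGCNNAA, a shorter C/EBP-like pattern held by 10.8% of all windows. The printed windows held no TTGCNNAA.

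Ly6c2 was lowest in undifferentiated OE progenitors and stood at 307 FPKM or more in every library at 96 h. At 0 h it was 92.3 and 846 FPKM in the WT libraries and 10.9 and 8.43 FPKM in the OE libraries. By 36 h Ly6c2 was 2179 and 275 FPKM in WT and 158 and 117 FPKM in OE. By 96 h Ly6c2 was 662 and 307 FPKM in WT and 702 and 1257 FPKM in OE. The OE libraries lay below both WT libraries at 0 h and 36 h and above both at 96 h. The OE libraries lay higher at each later time, whereas the WT libraries of the 3 times overlapped. By mean FPKM the order was WT at 36 h, OE at 96 h, WT at 96 h, WT at 0 h, OE at 36 h and OE at 0 h, with mean ± SD from 1227 ± 1346 (n = 2) to 9.69 ± 1.78 (n = 2). In that order the OE 96 h libraries did not overlap the WT 96 h libraries and the OE 0 h libraries stood below all others, while every other pair of neighbours overlapped. The WT libraries of a group differed 9.16-fold at 0 h and 7.93-fold at 36 h, and the OE libraries 1.30-fold and 1.35-fold.

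Ly6c1 followed the same course at a lower level. It was 27.3 and 230 FPKM in WT and 3.22 and 2.67 FPKM in OE at 0 h. The 36 h values were 613 and 78.9 FPKM in WT and 45.9 and 33.5 FPKM in OE. By 96 h Ly6c1 was 192 and 90.1 FPKM in WT and 208 and 356 FPKM in OE. As for Ly6c2, the OE libraries were the lower ones at the first 2 times and the higher ones at 96 h, with no overlap at any of the 3 times.

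**Figure D1:**
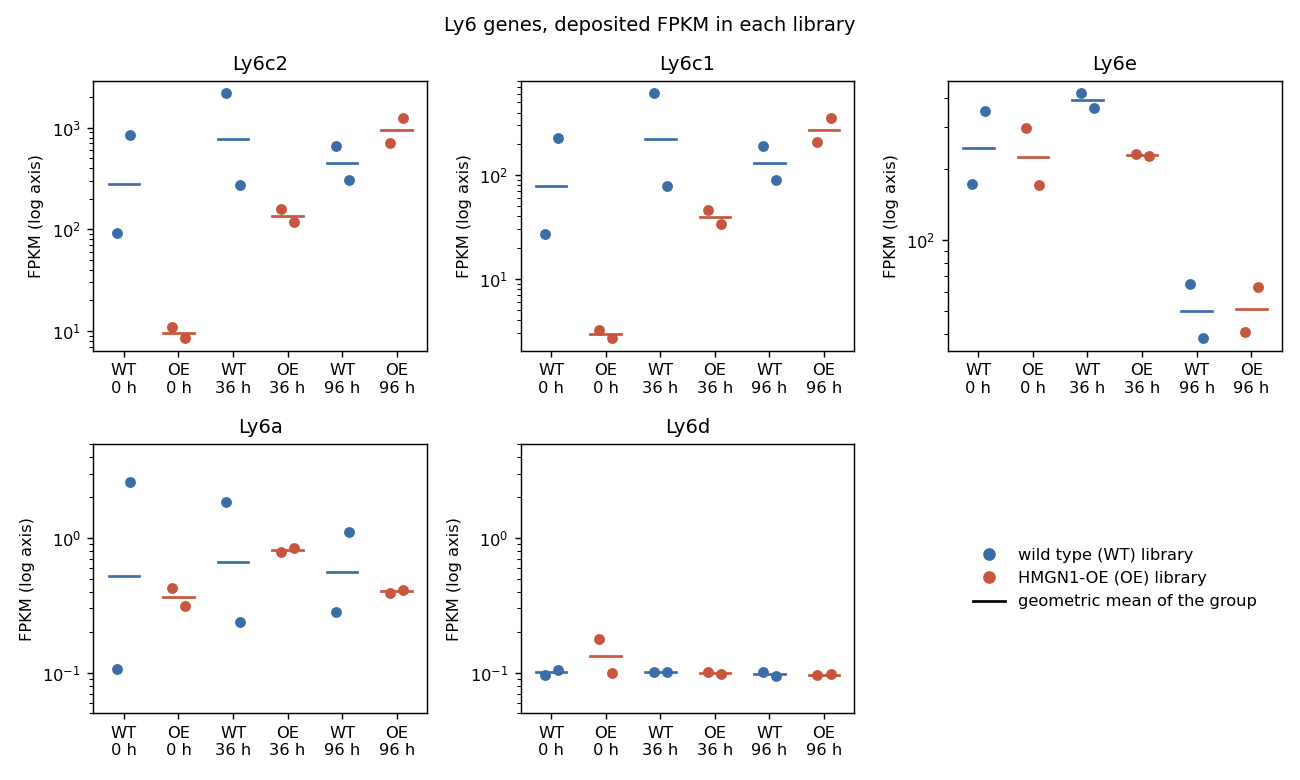
Deposited FPKM of each Ly6 gene on a log axis in WT (blue) and HMGN1-OE (red) libraries at 0, 36 and 96 h, with a point for each library and a line at the geometric mean of the 2. Ly6c2 and Ly6c1 are lowest in OE at 0 h, Ly6e is lowest at 96 h in both genotypes, and Ly6a and Ly6d lie near the floor.

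The genotype difference in Ly6c2, as OE minus WT on the log2(FPKM + 1) scale, was -4.73 at 0 h, -2.50 at 36 h and 1.06 at 96 h (SE 0.59, limma, n = 2 against 2). For Ly6c1 it was -4.36, -2.46 and 1.04 (SE 0.56). Ly6c2 was thus 26.5-fold lower in OE at 0 h, 5.65-fold lower at 36 h and 2.08-fold higher at 96 h on this scale. The median difference of all 11516 genes tested was -0.12, -0.54 and 0.36 at the 3 times. These differences describe genes chosen for their values, and no test is drawn from them. The SE comes from the trend of spread over expression and does not hold the gap between the WT libraries, which was 3.18 for Ly6c2 at 0 h on the same log2 scale. Without the second WT library at 36 h the difference there was -3.99 for Ly6c2 and -3.93 for Ly6c1, and without the first it was -1.01 and -0.99. At 0 h it was -6.32 without the first WT library and -3.14 without the second.

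Of the 4 members past the filter, the fit called 2 at 0 h (adjusted p under 0.05), both lower in OE, where 1.36% of all genes tested were called and 0.564% were called lower. At 36 h it called 2 members, both lower, where 1.26% of all genes were called and 0.842% lower. By limma 0 members were called at 96 h, where 0.669% were called. Both OE libraries lay below both WT libraries for 2 members at 0 h and 3 at 36 h, and for 4.67% and 84.4% of all genes tested. At 96 h both OE libraries lay above for 2 members and for 10.2% of all genes. Since the members were selected on these values, nothing is read from these counts. With 2 libraries against 2, an exact two-sided permutation test cannot go below p = 0.333. After median centring of the libraries 0 members were called at 0 h and 36 h, where the differences in Ly6c2 were then -4.59 and -1.92. The 36 h count was also 0 without the first WT or the second OE library at 36 h, and 1 without the first OE library.

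**Figure D2:**
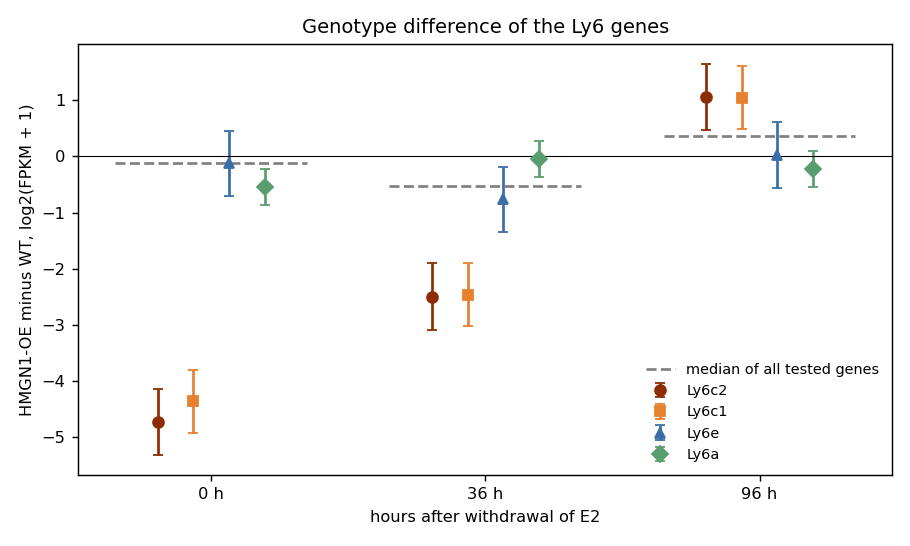
OE minus WT difference in log2(FPKM + 1) of the 4 Ly6 genes past the filter at 0, 36 and 96 h, with bars of 1 SE from limma and a dashed line at the median of all genes tested. Ly6c2 and Ly6c1 lie at -4.73 and -4.36 at 0 h and at 1.06 and 1.04 at 96 h, and Ly6e and Ly6a stay within 0.77 of 0.

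Over time Ly6c2 was higher in OE by 3.69 at 36 h and by 6.47 at 96 h than at 0 h (log2 difference, SE 0.59). In WT the corresponding differences were 1.46 and 0.68, and the libraries overlapped in both. The median of all genes tested was 0.06 and -1.28 in OE and 0.47 and -1.75 in WT over the same intervals. Between 0 h and 96 h Ly6c2 therefore moved against the bulk of the genes in OE, and in WT its difference stood 2.44 above the median gene. Without the first WT library at 0 h the WT difference at 96 h turned to -0.91 for Ly6c2 and -0.80 for Ly6c1, and the WT difference at 36 h turned to -0.13 and -0.06. Without the first WT library at 36 h the latter pair was -0.03 and -0.02. Without the second WT library at 0 h the WT differences at 36 h were 3.05 and 2.97 and those at 96 h 2.27 and 2.23. Without the second WT library at 36 h, the one near the 0 h libraries in Flt3, the 36 h differences were 2.96 and 2.92.

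For Ly6c1 the differences in OE were 3.36 at 36 h and 6.12 at 96 h (SE 0.56), and in WT they were 1.45 and 0.71. The excess of the OE change over the WT change from 0 h to 96 h was 5.79 for Ly6c2 (SE 0.84) and 5.40 for Ly6c1 (SE 0.79), and over 0 h to 36 h it was 2.23 and 1.90 with the same errors. The 36 h value lay between 0.64 and 3.82 for Ly6c2 and between 0.39 and 3.41 for Ly6c1 over the alternatives, and without the second WT library at 36 h it was 0.74 and 0.43. These comparisons share the 0 h libraries with the genotype difference at 0 h. The fit called 2 of 4 members in OE from 0 h to 36 h, both higher (1.8% of all genes were called, 0.677% higher), and 0 in WT (0.617%). From 0 h to 96 h it called 3 in OE, 2 higher and 1 lower (67.5% of all genes were called, 5.08% higher and 62.4% lower), and 1 in WT, Ly6e, lower (81.5%, with 77.2% lower). After median centring the WT count became 3, all higher, and with quantile normalization 2, both higher. The counts in WT and in the 36 h interaction also changed when a WT library at 0 h or 36 h was left out. For 96 h in WT the direction changed too. As given above, both Ly6c differences there were positive without the second WT library at 0 h and negative without the first. In the interaction it called 0 members at 36 h (0.504%) and 2 at 96 h, both higher (0.677%, with 0.339% higher). The 2 calls in OE from 0 h to 36 h and the 2 in the 96 h interaction were lost with no filter, median centring, quantile normalization or no moderation. The 36 h libraries lay above the 0 h libraries for 1 member in WT and 3 in OE, and for 25.7% and 14.3% of all genes. The 96 h libraries lay below those at 0 h for 1 member in each genotype, where 80.9% of all genes did in WT and 82.8% in OE, and above them for 2 members in OE, where 7.95% did.

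The ratio of Ly6c2 to Ly6c1 was almost fixed. It lay between 3.16 and 3.68 in all 12 libraries, a 1.16-fold range, while Ly6c2 spanned 258-fold and Ly6c1 230-fold. In WT it was 3.38 and 3.68 at 0 h, and in OE 3.40 and 3.16. At the last time it was 3.45 and 3.40 in WT and 3.38 and 3.53 in OE. The 2 genes share transcript sequence as given above, and the part of shared reads in this ratio was not tested.

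**Figure D3:**
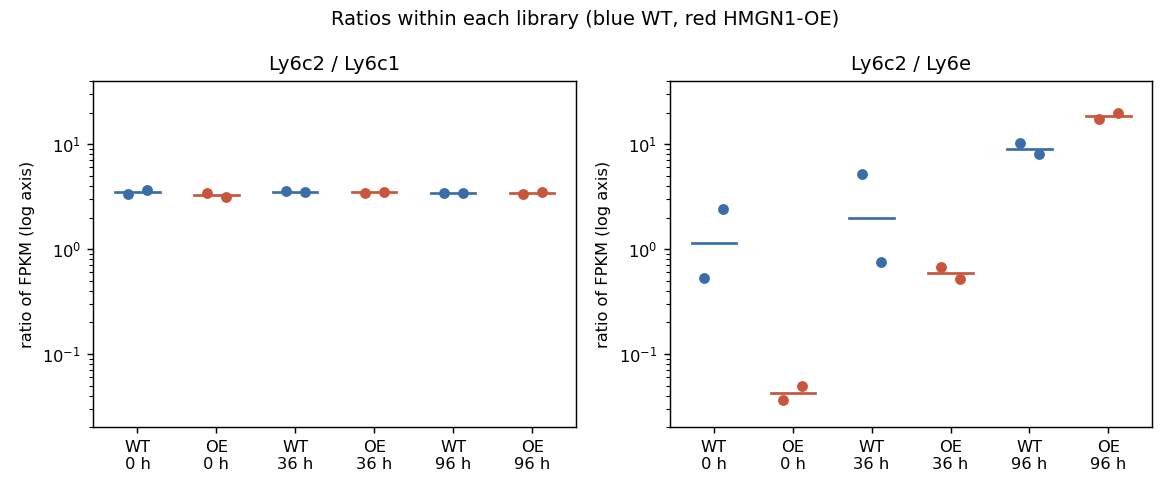
Ratios of FPKM within each library, Ly6c2 over Ly6c1 (left) and Ly6c2 over Ly6e (right), on the same log axis, with WT in blue, OE in red and a line at the geometric mean. The left ratio stays between 3.16 and 3.68, and the right ratio runs from 0.0367 to 19.9.

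Against Ly6e, the broad member, Ly6c2 changed place. The ratio of Ly6c2 to Ly6e was 0.535 and 2.40 in WT and 0.0367 and 0.0495 in OE at 0 h. After 36 h the ratio stood at 5.21 and 0.755 in WT and 0.682 and 0.518 in OE. By 96 h the ratio was 10.2 and 8.02 in WT and 17.3 and 19.9 in OE. Within a library a single scaling factor cancels, though the level-dependent loess step does not. The OE ratio was below both WT ratios at the first 2 times and above both at 96 h. Ly6e exceeded Ly6c2 by 27.3-fold and 20.2-fold in the undifferentiated OE libraries, and Ly6c2 exceeded Ly6e in all 4 libraries at 96 h.

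Ly6e itself differed little between genotypes and was lower at 96 h. It was 173 and 352 FPKM in WT and 298 and 170 FPKM in OE at 0 h. The 36 h values were 418 and 364 FPKM in WT and 232 and 226 FPKM in OE. By 96 h Ly6e was 65.0 and 38.2 FPKM in WT and 40.6 and 63.3 FPKM in OE. The genotypes overlapped at 0 h and 96 h, and at 36 h the OE libraries were the lower ones, as were those of 84.4% of all genes tested. The OE minus WT difference was -0.13 at 0 h, -0.77 at 36 h and 0.02 at 96 h (log2, SE 0.58), and at 36 h -0.87 without the second WT library. The difference at 0 h turned positive after median centring, and the one at 96 h turned negative there and with quantile normalization. From 0 h to 96 h Ly6e differed by -2.28 in WT and -2.13 in OE (log2, SE 0.58), against medians of -1.75 and -1.28 over all genes. Ly6e thus differed from the median gene by -0.53 and -0.85, and after median centring the differences were -0.44 and -0.82.

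Ly6a, the stem cell member, was low throughout, from the floor to 2.58 FPKM. It was 0.106 and 2.58 FPKM in WT and 0.423 and 0.313 FPKM in OE at 0 h. The 36 h values were 1.83 and 0.236 FPKM in WT and 0.784 and 0.841 FPKM in OE. By 96 h Ly6a was 0.281 and 1.11 FPKM in WT and 0.393 and 0.410 FPKM in OE. Only 3 libraries, all WT, reached 1 FPKM, and in each of those groups the other library was at 0.281 FPKM or less. The genotypes overlapped at all 3 times, with differences of -0.54, -0.05 and -0.23 (log2, SE 0.32). Each of these turned with 1 library: the difference was 0.31 at 0 h and 0.13 at 96 h without the second WT library of that time, and at 36 h 0.55 without the first and -0.65 without the second. The sign at 36 h also changed with a pseudocount of 0.1 or 0.01, median centring or quantile normalization. The ratio of Ly6c2 to Ly6a was 25.9 and 26.9 in OE at 0 h and 327.8 or more in every WT library at 0 h and 36 h. The lowest ratio in WT at 96 h was 275.0, and in OE at 96 h the ratios were 1786 and 3065.

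Ly6d stayed between 0.0954 and 0.178 FPKM in all 12 libraries. The most common value of a library, at which many genes are listed, lay between 0.0967 and 0.105 FPKM, so Ly6d was at or close to that floor and did not pass the filter. Its highest value was in the first OE library at 0 h. Ranked by mean FPKM among all genes listed, Ly6c2 was number 217, Ly6e 605, Ly6c1 798, Ly6a 11220 and Ly6d 15508.

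Ccr2 and Irf8 were uneven between WT libraries in the same sense as Ly6c2. Ccr2, the receptor that directs monocytes out of the marrow, was 3.60 and 35.7 FPKM in WT at 0 h and 38.3 and 7.32 FPKM at 36 h, high in the same library of each pair as Ly6c2. Irf8, a transcription factor of the monocyte lineage, was 2.72 and 15.2 FPKM at 0 h and 12.9 and 6.47 FPKM at 36 h in WT. Ccr2, Irf8, Csf1r, Flt3, Kit and Gata2 were named after their values were seen. In OE at 0 h Ccr2 was 11.97 and 6.61 FPKM, between the WT libraries, while Ly6c2 lay below both. For Ccr2 the OE minus WT difference was -0.39 at 0 h and -0.95 at 36 h (log2, SE 0.49, limma adjusted p = 0.99997 and 0.496).

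Summed over 13 monocyte and macrophage genes, led by F13a1 and Emr1, the level was 117 and 342 FPKM in WT and 373 and 211 FPKM in OE at 0 h. The sum was 278 and 232 FPKM in WT and 158 and 189 FPKM in OE at 36 h, and 98.7 to 135 FPKM in all libraries at 96 h. Without Ccr2 and Irf8 the other 11 genes summed to 110 and 291 FPKM in WT at 0 h and to 227 and 219 FPKM at 36 h. At 36 h that sum was nearly level where Ly6c2 differed 7.93-fold. The sum follows its highest genes and does not show how low ones differed, such as Csf1r with a mean of 2.04 FPKM in WT at 36 h. Of the 10 genes of that list past the filter, limma called 0 between genotypes at 0 h, with 2 at an unadjusted p under 0.05, where 1.36% of all genes were called and 457 of 11516 had such a p. At 36 h it called 1 (1.26% of all genes, 0.842% lower), Irf8, lower in OE (log2 difference -1.49, SE 0.43, adjusted p = 0.0412, limma). Csf1r, a receptor of monocytes and macrophages, was between 0.275 and 3.62 FPKM at 0 h and 36 h and between 7.17 and 13.5 FPKM at 96 h. From 0 h to 96 h limma called 2 of the 10 genes higher, Csf1r among them, and 4 lower in WT. There 4.31% of all genes were called higher and 77.2% lower. In OE it called 3 higher, Csf1r among them, and 3 lower, where 5.08% and 62.4% of all genes were. Fewer cells of a type and less RNA per cell cannot be told apart in these bulk samples, and the part of other cell types in the Ly6c values was not tested.

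**Figure D4:**
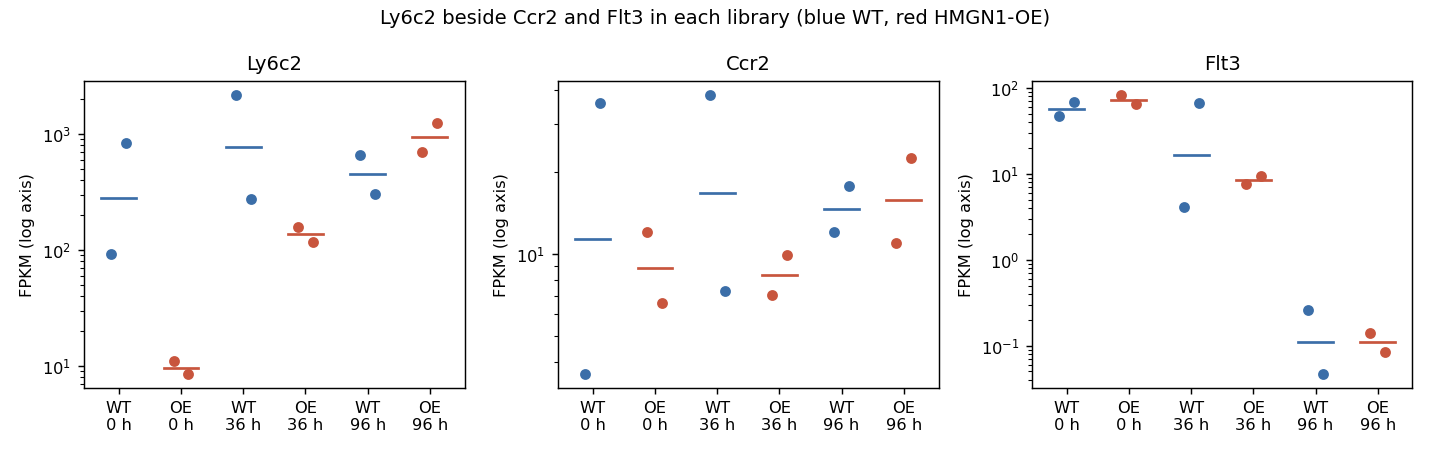
FPKM of Ly6c2, Ccr2 and Flt3 in each library on log axes, with WT in blue, OE in red and a line at the geometric mean. In WT at 0 h and 36 h the same library is high for Ly6c2 and Ccr2, and the second WT library at 36 h has Flt3 at 67.0 FPKM.

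Markers of other lineages moved as follows beside these genes. The neutrophil sum was 10318 and 16396 FPKM in WT and 8922 and 6076 FPKM in OE at 0 h, and 23435 and 18272 FPKM in WT and 15762 and 12104 FPKM in OE at 36 h. By 96 h the neutrophil sum was 97213 and 67278 FPKM in WT and 121930 and 175334 FPKM in OE. The OE sums lay below both WT sums at 0 h and 36 h, as for Ly6c2 and Ly6c1, and did so without S100a9 too. The OE libraries lay below in this way for 4.67% of all genes at 0 h and for 84.4% at 36 h. At 96 h the OE sums lay above both WT sums, but the first WT sum lacks S100a9. Without that gene the sums of 97213 and 40732 FPKM in WT and 70055 and 101874 FPKM in OE overlapped. Between genotypes 2 of the 16 neutrophil genes were called lower in OE at 0 h (0.564% of all genes), 4 lower at 36 h (0.842%), and 4 higher and 2 lower at 96 h (0.669% in either direction), S100a9 being among those called higher. Of the 16 neutrophil genes, 10 rose and 6 fell from 0 h to 96 h in WT, and 12 rose and 3 fell in OE, where 4.31% of all genes were called higher and 77.2% lower in WT, and 5.08% and 62.4% in OE. The 6 called lower in WT included S100a9, by its listing at 0.0511 FPKM in the first WT library at 96 h. Without that library 11 rose and 4 fell in WT, and S100a9 differed by 5.31 there and by 1.22 between genotypes at 96 h (adjusted p = 0.184, limma). The 12 stem and progenitor genes, led by Cd34 and Myb, summed to 754 to 1932 FPKM at 0 h and 36 h and to 23.6 to 56.6 FPKM at 96 h, while the Ly6a libraries of 0 h and 96 h overlapped in WT and in OE. The 14 lymphoid and plasmacytoid genes, led by Thy1 and Ebf1, summed to 340 to 855 FPKM at 0 h and 36 h and to 7.77 to 24.7 FPKM at 96 h, and 7 of them passed the filter. The eosinophil, basophil and mast cell sum, led by Cpa3 and Prg2, ranged from 312 to 2665 FPKM. Prg2 led through 96 h, since its group means at 0 h and 36 h were 3.65 to 27.5 FPKM, below the 126 to 365 FPKM of Mcpt8. The erythroid and megakaryocyte sum, led by Pf4 and Hbb-b1, ranged from 3.66 to 77.3 FPKM. The highest eosinophil, basophil and mast cell sum was in the first WT library at 36 h, which also held the highest Ly6c2. Of 8 genes of that list past the filter limma called 0 between genotypes at 0 h, with 2 at an unadjusted p under 0.05. There 1.36% of all genes were called and 457 of 11516 had such a p. At 36 h it called 1 lower in OE, Prg2, where 0.842% of all genes were called lower. At 96 h it called 3 lower in OE, Prg2, Epx and Prg3, named after their values were seen. There 0.669% of all genes were called in either direction. At 0 h the fit called Procr, Dntt and Hba-a1 higher in OE, 1 each of 10 stem, 7 lymphoid and 5 erythroid genes past the filter. There 1.36% of all genes were called in either direction, and these 3 were named after their values were seen. Procr and Hba-a1 were low, with 0 h means of 0.713 and 0.695 FPKM in WT and 3.28 and 3.35 FPKM in OE. Of the 10 stem genes 4 had negative differences at 0 h, Kit among them at -1.38. Dntt, an enzyme of lymphoid progenitors, was 15.9 and 4.60 FPKM in WT and 68.1 and 47.4 FPKM in OE at 0 h (log2 difference 2.57, SE 0.42, adjusted p = 1.38e-07, limma). Their part in the Ly6 values was not tested.

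Among 11515 other genes, the one most like Ly6c2 over the 12 libraries was Ly6c1 (Pearson r = 0.9996 on log2(FPKM + 1)). Il6ra, the receptor chain for interleukin 6, followed at r = 0.97, and Soat1, which esterifies cholesterol, at r = 0.96. For Ly6e the nearest were Pecam1, an adhesion molecule, 2510003E04Rik and Cox7a2l, at r = 0.996, 0.996 and 0.994. For Ly6a they were Usp53 (r = 0.95), Gm10863 (r = 0.94) and Ttc12 (r = 0.93). Between members, Ly6c2 had r = -0.22 with Ly6e and r = 0.44 with Ly6a. These correlations are descriptions over 12 libraries of 6 groups that share the spike-in scaling, and after median centring 1 of the 3 nearest genes was shared for each member.

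The wider Ly6/uPAR family was mostly near the floor. Of 43 other family genes listed, 33 had values, 29 of these stayed under 1 FPKM in every library, and 16 sat at the floor value in all 12. Ly6f and Ly6k were among the latter, and Ly6i, a close neighbour of the Ly6c genes, reached no more than 0.478 FPKM. The 4 genes past the filter were Cd177, Plaur, Cd59a and Ly6g5b. Of the 22 protein-coding genes that GENCODE vM21 places from Psca to Ly6f on chromosome 15, 18 had values and 5 passed the filter, namely Them6, Ly6e, Ly6a, Ly6c1 and Ly6c2.

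Cd177, a neutrophil surface protein, was high at 96 h alone. It was 4.16 and 1.70 FPKM in WT and 2.02 and 1.62 FPKM in OE at 0 h, and no more than 1.02 FPKM in any library at 36 h. By 96 h Cd177 was 244 and 91.7 FPKM in WT and 267 and 248 FPKM in OE. All 96 h libraries stood far above those of the earlier times in both genotypes. It rose from 0 h to 96 h by 5.34 in WT and 6.52 in OE (log2, SE 0.48, limma adjusted p = 1.27e-26 and 2.97e-39). The interaction was not called (1.19, SE 0.68, adjusted p = 0.81).

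Plaur, the urokinase receptor, was 12.9 to 42.3 FPKM at 0 h and 36 h and 161, 99.6, 104 and 98.0 FPKM in the WT and OE libraries at 96 h. It rose by 2.75 in WT and 2.38 in OE (log2, SE 0.54, limma adjusted p = 1.38e-06 and 5.61e-05). Genotype did not separate Plaur at 96 h, where the libraries overlapped.

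Cd59a, an inhibitor of complement, was higher in OE at 0 h and 36 h, where both Ly6c genes were lower. It was 0.442 and 0.357 FPKM in WT and 2.36 and 2.82 FPKM in OE at 0 h, and 0.449 and 1.13 FPKM in WT and 3.88 and 2.22 FPKM in OE at 36 h. The OE libraries were the higher ones at both times, by 1.36 at 0 h and 1.17 at 36 h (log2, SE 0.33). At 96 h all libraries were at 0.597 FPKM or less, and the difference was 0.38. Cd59a passed the filter through its 4 OE libraries at 0 h and 36 h, with 1 WT library at or above 1 FPKM, so no test is drawn from these differences. The fit's calls at 0 h and 36 h were lost with no filter.

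Ly6g5b lay between 1.18 and 4.67 FPKM and was called from 0 h to 96 h in WT (0.90 higher, log2, SE 0.38, adjusted p = 0.0221, limma). In all, 3 of the 4 family genes rose in WT from 0 h to 96 h (4.31% of all genes were called higher there), and in OE 2 rose (5.08%) and Cd59a was called lower. For Cd59a that difference was -1.31, or 0.0036 after median centring, and is also a description. With median centring or quantile normalization 3 family genes rose and 0 fell in OE.

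**Figure D5:**
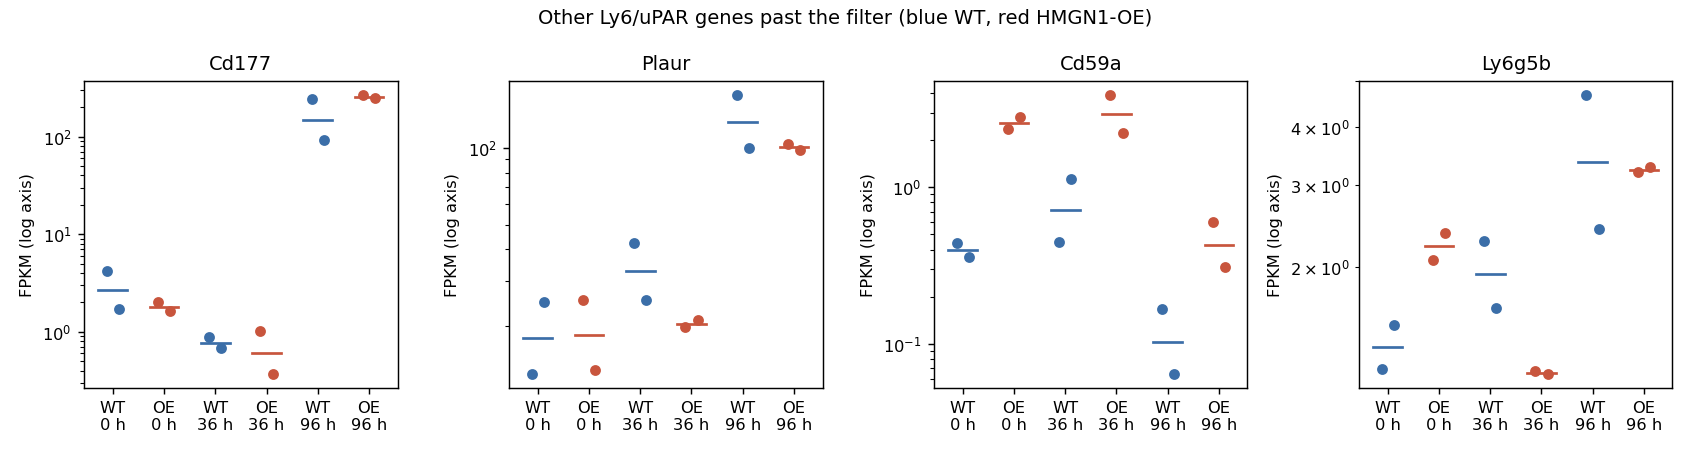
FPKM of the 4 other Ly6/uPAR genes past the filter in each library on log axes, with WT in blue, OE in red and a line at the geometric mean. Cd177 and Plaur are highest at 96 h in both genotypes, and Cd59a is higher in OE at 0 h and 36 h.

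Ly6 proteins need the GPI anchor to stay on the cell, so its synthesis genes were read beside them. Of 30 genes listed 29 had values and 27 passed the filter, including Piga, part of the first enzyme of the pathway, and Pigk, part of the transamidase that attaches the anchor. Between genotypes limma called 0 of the 27 at 0 h, 36 h or 96 h, and 0 had an unadjusted p under 0.05. Of all 11516 genes tested, 1.36%, 1.26% and 0.669% were called at these times, and 457, 593 and 314 had such a p. No alternative called any of them between genotypes. From 0 h to 96 h 25 fell in WT and 24 in OE on the spike-in scale, where 77.2% and 62.4% of all genes were called lower, with medians of -2.15 and -1.47 beside -1.75 and -1.28 over all genes. After median centring, 12 fell and 4 rose in WT, and 11 fell and 3 rose in OE. With quantile normalization 14 fell and 4 rose in WT, and 13 fell and 3 rose in OE. Without the first OE library at 0 h or at 96 h, 8 fell in OE on the spike-in scale.

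The largest falls in WT were those of Piga (-3.10, SE 0.51, adjusted p = 8.75e-09), Pigu (-2.93, SE 0.53, adjusted p = 1.87e-07) and Dpm3 (-2.82, SE 0.56, adjusted p = 1.82e-06), as log2 differences from limma. In OE they were those of Pigu (-2.19), Pign (-2.14) and Dpm3 (-2.07), with adjusted p of 0.000169, 0.000139 and 0.000731. Each of these differences stayed below 0 after median centring. In OE Ly6c2 and Ly6c1 had positive differences over the same interval and Ly6e a negative one.

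Interferon-induced genes were read because Ly6e and Ly6a belong to the genes that interferon raises in many cells. Of 26 listed, 15 passed the filter. Between genotypes 1 of the 15 was called at each time, where 1.36%, 1.26% and 0.669% of all genes were, and it was Oas1a, a sensor of double-stranded RNA from a family of similar copies. Oas1a was 0.189 and 0.875 FPKM in WT and 3.57 and 2.78 FPKM in OE at 0 h, and 0.117 and 0.256 FPKM in WT and 2.78 and 3.36 FPKM in OE at 96 h. The OE libraries were the higher ones at all 3 times, by 1.48, 1.90 and 1.78 (log2, SE 0.36). Oas1a passed the filter through its 6 OE libraries, with 1 WT library at or above 1 FPKM, so no test is drawn from these differences, and the calls at all 3 times were lost with no filter.

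From 0 h to 96 h 3 of 15 interferon-induced genes were called higher and 6 lower in WT, where 4.31% of all genes were called higher and 77.2% lower. In OE 4 were called higher and 4 lower, where 5.08% and 62.4% of all genes were. Their median differences were -0.65 in WT and -0.24 in OE, beside -1.75 and -1.28 over all genes. After median centring 11 rose and 2 fell in WT, and 11 rose and 1 fell in OE. With quantile normalization 9 rose and 3 fell in WT, and 10 rose and 1 fell in OE. The OE count of 8 became 2 without the first OE library at 96 h, 4 without the first at 0 h and 5 without the second at 0 h. Ifi27l2a rose by 2.28 in WT and 1.91 in OE (SE 0.38, adjusted p = 1.90e-08 and 4.66e-06), as did Zbp1 by 1.36 and 1.01 (adjusted p = 0.00114 and 0.0198). Irf7 was higher by 1.14 and 0.89, a description, since it passed the filter through its 4 libraries at 96 h. Bst2, a tethering antiviral membrane protein with a GPI anchor of its own, fell by 3.02 in WT and by 2.16 in OE (SE 0.53, adjusted p = 8.19e-08 and 0.000207). Eif2ak2 fell by 2.25 and 1.34 (adjusted p = 1.68e-05 and 0.0133), or by 0.41 and 0.03 after median centring, and Ifih1 fell by 1.94 in WT (adjusted p = 2.60e-05), or by 0.09 after centring. Bst2 differed by -1.18 in WT and -0.85 in OE after centring. Rtp4 was called lower in OE from 0 h to 36 h (-1.13) and from 0 h to 96 h (-1.45, or -0.14 after centring), values given as descriptions because 4 of its 5 libraries at or above 1 FPKM were those of 0 h. From 0 h to 36 h in WT 0 were called by limma, with 1 at an unadjusted p under 0.05, where 0.617% of all genes were called and 378 of 11516 had such a p.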

How the data were processed

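RNA-seq was measured in 12 libraries of 6 groups. The authors deposited FPKM, 1 value per gene and library, made from a fixed number of cells with added ERCC RNAs and normalized to these by loess. The paper's methods name Bowtie and RPKM, and the submitters' processing notes name HISAT, Cufflinks 2.0.0 and mm9, so the tools behind the values are not settled. No coordinates on mm9 are given. The TruSeq v2 kit does not mark strand. Columns carry no replicate number of the sample names.

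The 92 ERCC rows were left out. log2(FPKM + 1) was fitted with limma 3.58.1 in R 4.3.3 (lmFit, eBayes with trend, 6 group means, two-sided, Benjamini-Hochberg) over the 11516 genes that reached 1 FPKM in 2 or more libraries, and adjusted p under 0.05 was called. Prior degrees of freedom were infinite, so each gene's variance came from the trend. The fit was tested on simulated data. The paper describes the libraries of a group as biological duplicates, and the sources used here do not say whether they came from separate mice. P-values rest on the spread typical of genes at a like level over these samples, not on a gene's own spread. Sequences came from GENCODE vM21 and RefSeq GRCm38.p6. Python 3.11.15, pandas 2.3.3 and Biopython 1.88 were used.

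The members and lists were chosen with earlier results of these data known. Named were the members, other family genes at 5 FPKM or more in 1 library or called, the 3 largest called changes each way of the GPI and interferon lists, the 2 highest genes of each cell type list, and the 3 genes most like each member. The alternatives were pseudocounts of 0.1 and 0.01, none for ratios, no filter, a mean of 5 FPKM, median centring, quantile normalization, limma without trend, robust or without moderation, only the groups compared, and each library left out.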

Additional observations from a re-analysis of the deposited data

Results flagged for a closer look

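The change from 0 h to 96 h differed between genotypes for both Ly6c genes, by an interaction term, OE minus WT, of 5.79 for Ly6c2 (SE 0.84) and 5.40 for Ly6c1 (SE 0.79) on the log2 scale. Over the alternatives the Ly6c2 term lay between 4.19 and 7.38 and the Ly6c1 term between 3.89 and 6.92, and both were given as descriptions because the members were chosen on these values.

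Among the leading marker genes, the limma interaction term at 96 h was 8.75 for S100a9 (SE 0.87, adjusted p = 8.24e-21), whose first WT library at 96 h was listed at 0.0511 FPKM. Without that library the term was 1.44 (SE 0.83, adjusted p = 0.262). For Prg2, a protein of eosinophil granules, it was -3.50 at 36 h (SE 0.76, adjusted p = 0.00125) and -3.60 at 96 h (adjusted p = 0.000527). With single libraries left out, the Prg2 term lay between -4.95, without the second WT library at 36 h, and -2.06, without the first (adjusted p = 0.72), at 36 h. At 96 h it lay between -4.41 and -2.79, without the first and the second WT library at 0 h (adjusted p = 0.226 for the latter). The 36 h call was also lost without the first OE library at 0 h, the second WT library at 0 h or the second OE library at 36 h, and the 96 h call without the first OE library at 96 h. For Hbb-b1, a globin with near-identical copies, it was -2.43 at 36 h (SE 0.63, adjusted p = 0.027) and -2.82 at 96 h (adjusted p = 0.00172). Without the first OE library at 0 h, where Hbb-b1 was 34.5 FPKM against 5.10 FPKM in the second, the Hbb-b1 terms were -1.16 and -1.55 and neither was called (adjusted p = 0.99995 and 0.631). Both calls were also lost without the second WT library at 0 h, the 36 h call without the first OE or the second WT library at 36 h, and the 96 h call without the first OE library at 96 h.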

How the results depend on the processing

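No paired analysis was possible because the columns carry no replicate number of the sample names. Of 796 counts of called genes recomputed, 693 stayed within 1.5 times the reported count. Those kept include every count of 0 that stayed 0, and small counts above 0 often became 0, as given below. Of 837 member differences and ratios 769 moved by less than the spread between libraries, with 45 changes of sign, all among uncalled differences. Many of the 769 could not move, since filters, variance settings and libraries of other groups leave a difference of group means as it is. The difference in Ly6c2 between genotypes kept its sign in all 22 alternatives at each time. Of these only the pseudocounts, the scalings and the left-out libraries of the groups compared could move it. It lay between -6.32 and -3.14 at 0 h, -3.99 and -1.01 at 36 h, and 0.49 and 1.61 at 96 h.

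The members called between genotypes numbered 0 in place of 2 at 0 h with no filter, median centring, quantile normalization or no moderation, and 0 in place of 2 at 36 h with these, without the trend, or with only the groups compared. The 2 called from 0 h to 36 h in OE, and the 2 called in the interaction at 96 h, became 0 with no filter, centring, quantile normalization or no moderation. From 0 h to 96 h in WT, the 1 member called became 3 with centring, 2 with quantile normalization and 0 with only the groups compared. The family gene called at 0 h and at 36 h (Cd59a) became 0 with no filter, centring, quantile normalization, no moderation, no trend or a mean of 5 FPKM, and at 36 h also with either pseudocount or only the groups compared; that last setting called 1 in place of 0 from 0 h to 36 h in OE. The GPI genes called from 0 h to 96 h fell from 25 to 16 in WT and from 24 to 14 in OE with centring. The interferon-induced gene called at 0 h and 36 h became 0 with no filter, centring, quantile normalization, no moderation or a mean of 5 FPKM, at 0 h also without trend and at 36 h also with only the groups compared, and the one at 96 h became 0 with no filter, centring, no moderation, no trend or that mean. The one called from 0 h to 36 h in OE became 2 with only the groups compared and 0 with no filter, centring, quantile normalization, no moderation, no trend, that mean or either pseudocount. The 8 called from 0 h to 96 h in OE became 5 with no filter, no moderation or no trend and 3 with that mean, and the 9 in WT became 4 with that mean. Of the 3 genes most like each member, 1 was shared after centring. The cause was not tested, except that the mean of 5 FPKM tests fewer genes. It drops Cd59a, at most 3.88 FPKM, so the count of that gene was fixed at 0 there.

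With each library left out in turn, a lone library is assumed to vary like the other groups. The members called ranged from 0 to 2 between genotypes at 36 h (0 without the second OE or the first WT library, 1 without the first OE library), 0 to 2 from 0 h to 36 h in WT (2 without the second WT library at 0 h or at 36 h), 1 to 3 from 0 h to 96 h in WT (3 without the second, 2 without the first WT library at 0 h), and 0 to 2 in the interaction at 36 h (2 without the first WT library at 0 h or 36 h). Family genes ranged from 0 to 1 at 0 h and at 36 h. GPI genes from 0 h to 96 h in OE ranged from 8 to 24, with 8 without the first OE library at 0 h or at 96 h. Interferon-induced genes ranged from 0 to 1 at 0 h, at 96 h and from 0 h to 36 h in OE, and from 2 to 8 from 0 h to 96 h in OE, with 2 without the first OE library at 96 h, 4 without the first and 5 without the second at 0 h. Read depth is unknown, so no counting limit can be given for Ly6a or Ly6d near the floor.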
